A study of Homo sapiens with 48 samples.

Results

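The regions described here were those bound by FOSL1 or marked by H3K27ac before any cytokine was added to L3.6pl cells, a cell line of human pancreatic ductal adenocarcinoma (PDAC). ChIP-seq of RELA, RELB, H3K27ac or FOSL1 was made in 48 samples of this line, in 16 groups of 3, after vehicle or after TNFα or TWEAK for 30 min or 6 h. FOSL1 was measured in the vehicle group alone. The 3 FOSL1 samples and the 3 H3K27ac samples of the vehicle groups were each deposited as 1 pooled peak list. The H3K27ac vehicle is labelled as PBS, while the FOSL1 labels name the vehicle without its agent, and neither gives its duration. On chromosomes 1 to 22 and X the FOSL1 list held 58828 regions and the H3K27ac list 59855, together 118683 of the 406020 regions in all 16 lists of the series. Because each list pools its samples, no spread between replicates could be measured and no test between conditions was possible. Shares are given with exact (Clopper-Pearson) 95% intervals, which cover counting error only, and the sequencing depth behind them is unknown.

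FOSL1, also called FRA-1, is a FOS family protein that pairs with a JUN protein to form the transcription factor AP-1. AP-1 binds the core letters TGACTCA, which read TGAGTCA on the other strand, and it acts downstream of EGFR, RAS and MAPK signaling, which is active in most pancreatic tumors. H3K27ac is an acetylation of the tail of histone H3 that marks active promoters and enhancers. A FOSL1 region is called acetylated here when an H3K27ac region lay within 500 bp of its summit, the base with the highest signal. A promoter region had its summit within 1 kb of a protein-coding transcription start, and all others are called distal. The deposited fold enrichment of a region compares the ChIP with a background taken from the input, and it ranks regions within a list. Unrelated regions can have the same value, such as 7.12 for the strongest regions near BTC, CCN2 and LATS2.

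The strongest FOSL1 regions show the sequence under the summits. The 5 sequences that follow are 81 bp around the summits of acetylated regions among the 10 with the highest fold enrichment outside tandem repeats. The highest of the 10, nearest to IRS2 with 32.4, held no AP-1 core and is not among these 5. Sequences are named by the nearest protein-coding start and given on the plus strand of hg38, with each AP-1 core in capitals.
CRHR1, chr17:45705564-45705644: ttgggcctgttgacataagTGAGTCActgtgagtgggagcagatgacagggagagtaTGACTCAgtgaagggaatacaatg
FLT1, chr13:28476311-28476391: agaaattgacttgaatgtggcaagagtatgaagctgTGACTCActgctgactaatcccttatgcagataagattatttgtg
ERC2, chr3:56132357-56132437: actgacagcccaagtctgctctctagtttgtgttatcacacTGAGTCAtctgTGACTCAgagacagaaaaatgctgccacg
COMMD9, chr11:36149827-36149907: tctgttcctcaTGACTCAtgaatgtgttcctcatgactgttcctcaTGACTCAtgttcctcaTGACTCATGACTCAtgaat
NPFFR2, chr4:72112675-72112755: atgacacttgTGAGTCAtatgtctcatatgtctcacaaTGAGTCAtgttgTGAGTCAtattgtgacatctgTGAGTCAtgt
The next 5 are from the strongest regions with no H3K27ac within 500 bp, ranked in the same way. The region nearest to STX3, with a fold enrichment of 25.2, held no AP-1 core, but its window held 1 copy each of the words TGAATCA and TGACTAA, which differ from the core by a single letter.
HTR5A, chr7:155166864-155166944: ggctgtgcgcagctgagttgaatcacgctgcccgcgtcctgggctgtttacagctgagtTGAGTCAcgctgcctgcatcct
ONECUT1, chr15:53072247-53072327: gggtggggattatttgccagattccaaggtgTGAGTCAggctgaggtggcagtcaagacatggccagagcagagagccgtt
TEX26, chr13:30977924-30978004: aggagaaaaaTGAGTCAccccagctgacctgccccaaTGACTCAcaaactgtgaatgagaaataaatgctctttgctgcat
SLC4A11, chr20:3236061-3236141: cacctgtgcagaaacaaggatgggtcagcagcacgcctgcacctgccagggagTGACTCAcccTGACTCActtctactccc
STX3, chr11:59776624-59776704: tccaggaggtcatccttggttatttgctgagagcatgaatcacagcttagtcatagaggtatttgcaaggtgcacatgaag
The last is the promoter region of EGFR, described further on, which held a core near the summit.
EGFR, chr7:55109565-55109645: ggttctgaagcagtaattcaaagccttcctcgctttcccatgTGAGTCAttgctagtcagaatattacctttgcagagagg

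FOSL1 and H3K27ac lay together at most FOSL1 regions. Of the 58828 FOSL1 regions, 39623 (67.4%, 67.0 to 67.7%) were acetylated, and 35457 (60.3%) shared at least 1 bp with an H3K27ac region. For comparison, the H3K27ac regions covered 1.91% of the sequenced bases of these chromosomes, and 3.79% when extended by 500 bp on each side. In the other direction, 32546 of the 59855 H3K27ac regions (54.4%, 54.0 to 54.8%) shared at least 1 bp with FOSL1. The remaining 19205 FOSL1 regions were mostly far from acetylated chromatin, with a median distance of 16164 bp to the nearest H3K27ac region and an interquartile range of 5251 to 47522 bp.

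The summits took 2 kinds of position relative to the mark. A total of 28225 summits (48.0%) lay inside an H3K27ac region, at a median of 467 bp from its nearer edge, and 77.1% of these were at least 25% of the region's length away from either end. Another 11398 summits (19.4%) lay outside but within 500 bp, at a median of 109 bp from the region. Of those 11398 summits, 4163 (36.5%) sat in a gap with an H3K27ac region on both sides, and the gap had a median width of 303 bp. The share of summits with H3K27ac was 65.9% within 250 bp, 67.4% within 500 bp and 68.5% within 1000 bp, and with wider windows it went on to 75.2% within 5000 bp and 92.2% within 50000 bp.

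Part of the FOSL1 list lay in repeated sequence, which bears on every share. In 6344 FOSL1 regions (10.8%) the 1000 bp around the summit matched itself at a shift of up to 400 bp, and these are called tandem repeats. They held H3K27ac in 35.7% of cases against 71.2% outside them, and an AP-1 core in 3.14% against 42.4%. Chromosome 18, where 39.5% of the FOSL1 regions were in tandem repeats, had the lowest acetylated share, 51.6%. Outside tandem repeats the share ranged from 65.6% on chromosome X to 80.7% on chromosome 19. Of the regions outside tandem repeats, 8063 (15.4%) shared a stretch of 25 letters with the 200 bp window of another FOSL1 region. A single set of 1250 such near-copies, spread over all 23 chromosomes, was acetylated in 91.4% of cases, held an AP-1 core in 4.24%, and had a median GC content of 60.5%. The largest set, of 4235 regions linked through shared stretches, was acetylated in 53.4% of cases and held a core in 55.1%. Reads from near-copies can be placed at the wrong copy, and the part of this in these shares was not tested.

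The acetylated share was highest in the strongest FOSL1 regions, but it did not rise evenly from the weakest. By decile of fold enrichment it was 65.0% in the weakest decile, lowest at 58.3% (57.0 to 59.6%) in decile 3, and 88.6% (87.8 to 89.4%) in the strongest. The weak deciles held more promoter regions, 26.8% of decile 1 against 5.58% of decile 10, and more tandem repeats, 26.7% against 3.03%. Among distal regions alone the share was 53.3% in decile 1, 47.4% in decile 3 and 88.4% in decile 10. For distal regions outside tandem repeats it was 69.9% in decile 1, 51.5% in decile 3, 67.9% in decile 8 and 88.1% in decile 10. Of these, only deciles 9 and 10 were above decile 1. At promoters it stayed between 93.3% and 97.7% in all 10 deciles. The share of distal regions with an AP-1 core was higher in each successive decile, from 12.3% to 80.4%.

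**Figure D1:**
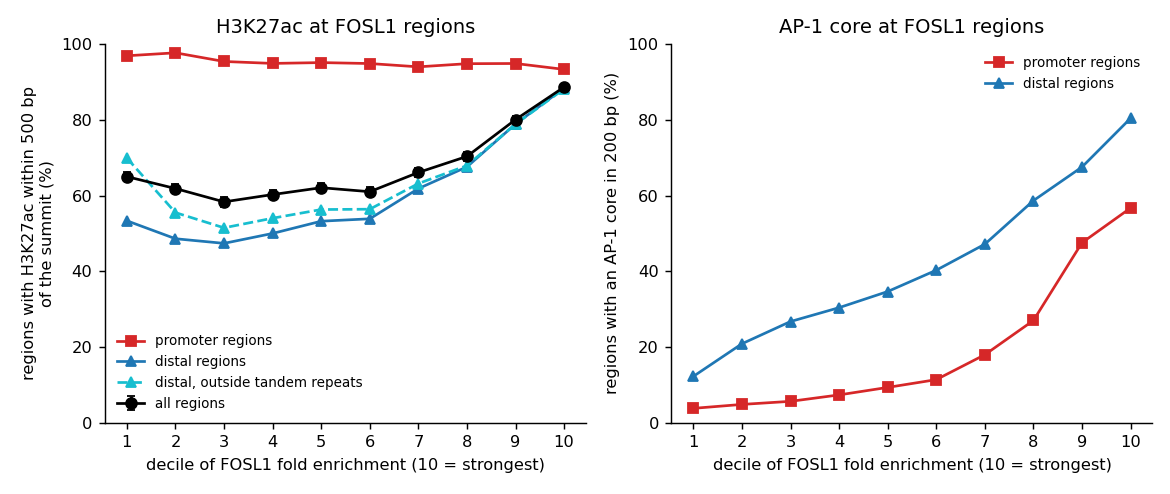
FOSL1 regions by decile of fold enrichment, with the percentage acetylated on the left and the percentage with an AP-1 core in 200 bp on the right. Bars on the black points are exact 95% intervals. Promoter regions stay at 93.3% or more acetylated throughout, distal regions reach 88.4% in decile 10, and cores become more frequent at both positions. The dashed line, for distal regions outside tandem repeats, starts at 69.9% in decile 1, is lowest at 51.5% in decile 3 and ends at 88.1%.

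Nearly all promoter regions were acetylated, and distal regions less often. The 10248 promoter regions (17.4% of the list) were acetylated in 95.6% of cases (95.2 to 96.0%), while the 48580 distal regions were acetylated in 61.4% (61.0 to 61.8%). Distal regions in introns and in exons stood at 66.8% and 66.9%, and intergenic regions at 57.7%, or 64.0% outside tandem repeats. By distance from the nearest start the share was 97.0% within 100 bp, 62.8% at 1000 to 5000 bp, 68.3% at 5000 to 20000 bp and 36.5% beyond 500000 bp. FOSL1 was weaker at promoters, with a median fold enrichment of 4.33 against 5.15 at distal regions.

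Promoter and distal FOSL1 regions differed in their sequence. Within the 200 bp around the summit, 12.1% of promoter regions and 43.7% of distal regions held an AP-1 core, against 2.99% of all 200 bp tiles of the genome. Outside tandem repeats, acetylated promoter regions more often held the GC box GGGCGGG, bound by SP and KLF proteins, in 34.3% of cases. The ETS core CCGGAAG was in 13.3% of them, where all tiles held these motifs in 1.03% and 0.462%. The CRE, TGACGTCA, a site for CREB and ATF proteins, was in 2.35% of acetylated promoter regions and 0.0691% of tiles. Promoters in general hold these motifs, and the 200 bp centered on all 55524 protein-coding starts held the GC box in 33.2%, the ETS core in 10.7% and the CRE in 1.70%. The promoter regions with an AP-1 core were stronger, with a median fold enrichment of 5.93 in 1222 regions against 4.22 in the 8855 without. The 443 promoter regions without H3K27ac had a sequence of another kind, with an AP-1 core in 30.5% (26.2 to 35.0%), the GC box in 19.2% and the ETS core in 1.58%. The median GC content was 64.5% at acetylated promoter regions and 46.0% at acetylated distal regions, and the part of base composition in the motif shares was not tested.

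The same motifs were also read at the start sites, since promoter summits lie near but not at them. A gene with several starts was counted at each of them, and the windows of nearby starts can overlap. In 200 bp centered on 23651 starts with both H3K27ac and FOSL1 within 1 kb the ETS core was present in 17.6%, against 11.1% of 11931 starts with H3K27ac alone. The AP-1 core was present in 2.49% and 0.939%, and the GC box in 41.7% and 41.8%. The 19265 starts with neither held the AP-1 core in 2.83%, more than the starts with both. At 677 starts with FOSL1 and no H3K27ac the AP-1 core was present in 8.86%.

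The 27725 acetylated and 14682 unacetylated distal regions outside tandem repeats both centered on AP-1. The core was present in 46.7% (46.1 to 47.3%) of the acetylated and 55.2% (54.4 to 56.0%) of the unacetylated regions, and it lay at a median of 15 and 18 bp from the summit. The higher share without H3K27ac also held when near-copies were left out, at 56.0% against 48.0%. Over all distal regions it held in each of deciles 2 to 10 of fold enrichment, for example 84.1% against 79.9% in decile 10, and was the other way in decile 1, at 11.7% against 12.8%. With tandem repeats included and deciles pooled, the shares over all distal regions were 43.6% without and 43.8% with H3K27ac, within counting error of each other. Unacetylated distal regions were weaker than acetylated distal regions, at a median fold enrichment of 4.79 against 5.89. They were not all weak. Among distal regions outside tandem repeats in the strongest decile, 638 had no H3K27ac within 500 bp and a median distance to it of 31751 bp, beside 4743 with H3K27ac. The core was present in 84.3% of the 638 and 81.9% of the 4743.

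**Figure D2:**
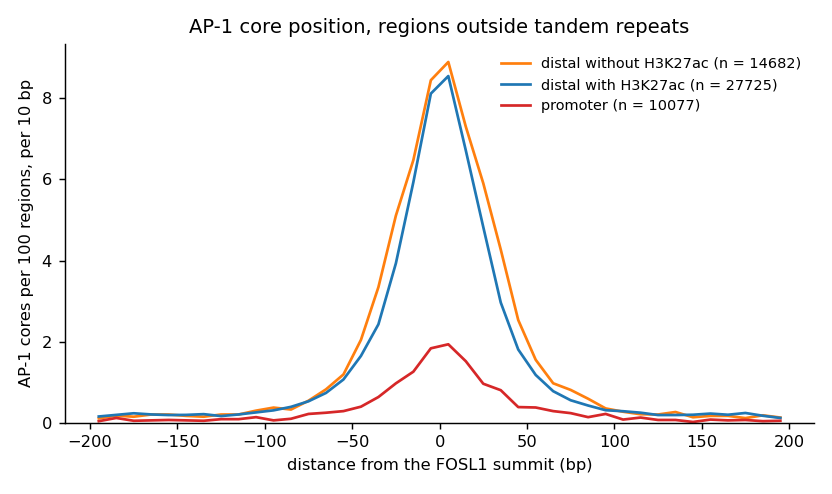
AP-1 cores per 100 FOSL1 regions in bins of 10 bp, by distance of the core from the summit in bp, for regions outside tandem repeats. The core sits on the summit in the 14682 unacetylated and 27725 acetylated distal regions alike, and its peak is lower in the 10077 promoter regions.

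Several other motifs were more frequent at acetylated than at unacetylated distal regions. The TEAD core GGAATG, bound by the partners of YAP, was found in 17.1% of acetylated and 14.5% of unacetylated distal regions, with 10.9% of tiles holding it. The forkhead core TGTTTAC was found in 8.39% and 6.93%, with 3.09% of tiles. The NF-κB consensus was found in 5.46% and 3.04%, with 2.53% of tiles, so that the unacetylated regions were close to this background. The GC box was found in 5.28% and 2.10%. Other motifs had higher shares without H3K27ac. The CCAAT box was found in 21.4% of acetylated and 24.0% of unacetylated distal regions, below the 27.2% of tiles, and the RUNX core TGTGGTT in 5.00% and 5.25%, a small difference. The core of CTCF, a protein of chromatin loops and domain borders, was found in 1.09% and 1.962%, with 0.0997% of tiles. All motifs were read on both strands and may overlap, and a match does not show that a protein was bound.

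**Figure D3:**
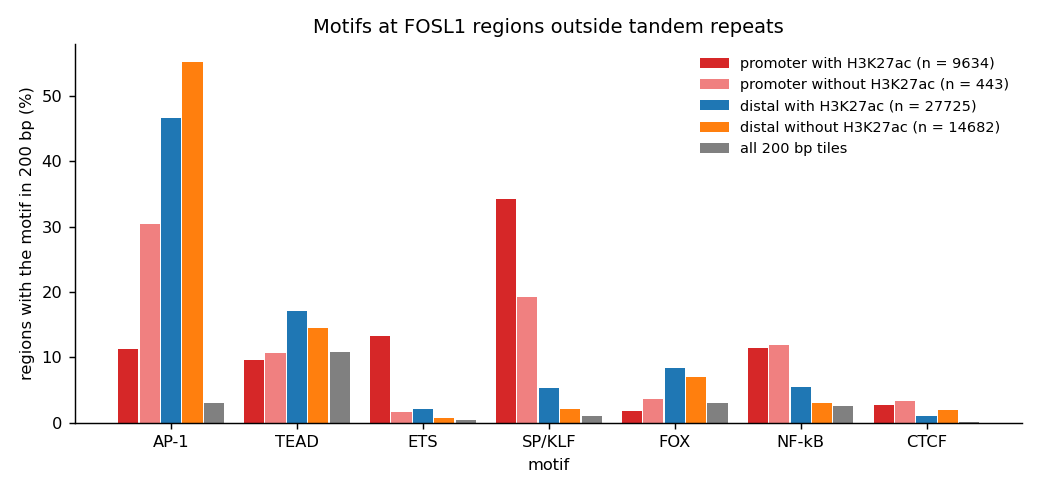
Percentage of FOSL1 regions outside tandem repeats with each motif in the 200 bp around the summit, for promoter and distal regions with and without H3K27ac, beside all 200 bp tiles of the genome in grey. AP-1 is most frequent at distal regions (46.7% and 55.2%), and the GC box and ETS core at acetylated promoter regions (34.3% and 13.3%).

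Among the ranked words of 7 letters, TGACTCA was the word most concentrated under the summit in promoter regions and in both distal classes. Relative to flanks 300 to 400 bp away, and outside tandem repeats and near-copies, it was 12.5 times as frequent in promoter regions, 23.6 times in acetylated distal regions and 37.5 times in unacetylated distal regions. At promoters, GACGTCA from the CRE followed the words overlapping the core, with a ratio of 5.54, and the ETS word ACTTCCG with 5.49. In distal regions that held no core, the 2 leading words were TGACTAA and TGAATCA, in acetylated and unacetylated regions alike. Of these core-less regions, 28.8% of the acetylated and 30.5% of the unacetylated held either word, against 5.45% of all tiles. The word CCACTAG, which occurs in many CTCF sites, was found in 6.35% of the unacetylated and 2.70% of the acetylated core-less regions, with 1.39% of tiles. Distal regions with a core had a median fold enrichment of 6.78, those with only a variant 5.73, and those with neither 4.45, and they were acetylated in 62.8%, 68.7% and 70.4% of cases.

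More cores went with stronger FOSL1, while the acetylated share was highest in regions without a core. Distal regions outside tandem repeats had a median fold enrichment of 4.67 with no core, 6.47 with 1, 8.89 with 2 and 11.1 with 3 or more. The acetylated share over the same 4 classes was 69.2%, 61.0%, 64.7% and 68.0%. Among regions with a core it was higher with 2 (62.7 to 66.7%) than with 1 (60.3 to 61.7%). The 181 regions with 3 or more cores had a wide interval of 60.6 to 74.7%. The letters beside the core also went with acetylation. The 3583 distal regions whose core nearest the summit read aTGACTCAt were acetylated in 53.1% of cases, and the 1574 with gTGACTCAg in 70.9%. Seen from the genome, 27512 of 458327 AP-1 cores (6.00%) lay in a FOSL1 region. Of the 17716 cores inside H3K27ac regions 64.9% lay in a FOSL1 region, against 3.63% of the 440611 cores elsewhere.

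From the side of the mark, longer and stronger H3K27ac regions held FOSL1 more often. The share with FOSL1 went from 33.5% in the lowest to 73.4% in the highest decile of H3K27ac fold enrichment, and from 20.2% to 84.5% by decile of length. Length gives more room for a FOSL1 region, so summits were also counted per Mb of marked sequence. By fold enrichment their number was 252 in the lowest and 689 in the highest decile. By length the density changed less and unevenly, at 384 per Mb in the shortest decile, 311 in decile 2, 605 in decile 8 and 508 in the longest. H3K27ac regions that touched a promoter held FOSL1 in 61.1% of cases (60.3 to 61.9%) and distal H3K27ac regions in 52.4% (51.9 to 52.8%), but the promoter regions were longer, with a median of 1385 bp against 630 bp. Per Mb the order was the other way, with 472 summits at promoter regions and 528 at distal regions. For H3K27ac regions outside tandem repeats these numbers were closer, at 477 and 494. Within each of the 10 length deciles the distal regions held FOSL1 more often, for example in 94.1% against 77.3% of the longest. A single FOSL1 region was found in 47.8% of H3K27ac regions, 2 in 5.98% and 3 in 0.521%, and only 21 regions held 4 or more.

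**Figure D4:**
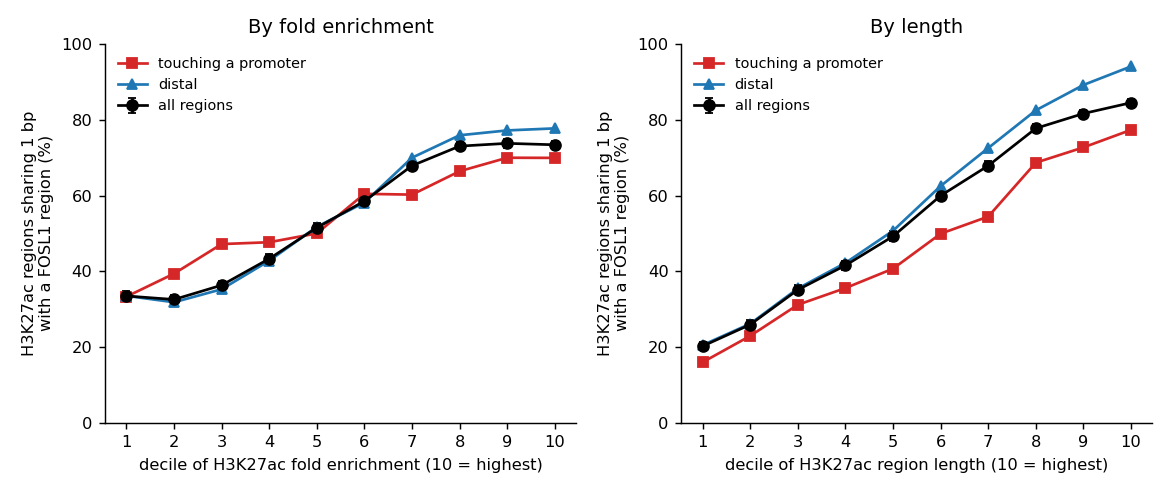
Percentage of H3K27ac regions sharing at least 1 bp with a FOSL1 region, by decile of H3K27ac fold enrichment on the left and of region length on the right, for all regions and for those touching a promoter or distal. Bars on the black points are exact 95% intervals. All regions go from 33.5% to 73.4% by fold enrichment and from 20.2% to 84.5% by length.

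The longest H3K27ac regions with and without FOSL1 were of like length. All of the 5 longest of each kind had low fold enrichments, 1.60 to 2.18. The lowest decile of the list ended at 2.26, and the list median was 3.05. The longest with FOSL1, 4883 bp at chr17:77319122-77324004, covered a start of SEPTIN9, a cytoskeletal septin, and held 2 FOSL1 regions. The region of 4355 bp at chrX:12974302-12978656 covered a start of TMSB4X, an actin-binding thymosin, and also held 2. The longest without FOSL1, 4530 bp at chr10:52314350-52318879, had its middle 2334 bp from a start of DKK1, a secreted WNT inhibitor. Its nearest FOSL1 summit was 409 bp away. Another, of 3800 bp, had its middle 1900 bp from a start of PITX1, a homeobox factor, with a FOSL1 summit 245 bp outside it. The region near KLRK1, which encodes an activating receptor of NK and T cells, was 4485 bp long and lay 21689 bp from any FOSL1 summit.

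The 10 strongest acetylated FOSL1 regions outside tandem repeats had fold enrichments of 24.9 to 32.4, and 9 of them held an AP-1 core, 7 with more than 1. The exception, 362343 bp from IRS2, matched the mitochondrial genome, as did 9 FOSL1 regions in all. The region with the next highest value, 31.1, lay in an intron upstream of the CRHR1 start at chr17:45705409-45705762. The region 18777 bp downstream of a start of FLT1, which encodes a VEGF receptor, had 26.5, and the region upstream of ANKRD10 had 25.7 with 8 cores in 200 bp. None of the 10 was at a promoter.

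The 10 strongest unacetylated regions had fold enrichments of 21.1 to 29.2, and 8 held a core. They lay between 2532 and 281547 bp from the nearest H3K27ac region, with a median of 39074 bp. The strongest was 96580 bp from HTR5A, a serotonin receptor gene. Those near SPATA31A1, CNTNAP3C and SPATA31A5 on chromosome 9 were copies of each other, at 99.5% to 100% identity over the aligned parts of their 200 bp windows, so that their separate values are uncertain. The only promoter among them was that of EGR4, an immediate early zinc finger gene, where FOSL1 peaked 25 bp from a start with a fold enrichment of 21.1, no core, and 8853 bp to the nearest H3K27ac region.

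At genes, FOSL1 was mostly found at promoters that carried H3K27ac. Of 19609 protein-coding genes, 46.2% had a FOSL1 summit and 64.7% an H3K27ac region within 1 kb of a start, 44.3% had an acetylated FOSL1 region there, and 79.6% had one within 50 kb. FOSL1 was at 69.0% of the genes with promoter H3K27ac and 4.39% of those without. The median gene had 2 acetylated FOSL1 regions within 50 kb. The highest count, 28, was at CCDC200, which had neither H3K27ac nor FOSL1 at the promoter and 5.74 as its highest fold enrichment. Other high counts were 20 at PDE4D, a cAMP phosphodiesterase gene, and 18 at PALLD, which encodes an actin-associated protein. PTK2, the gene of focal adhesion kinase, had 18, and SMAD3, a mediator of TGFβ signals, had 17. Genes in dense parts of the genome share such regions, and the values for gene lists are counts with no test.

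**Figure D5:**
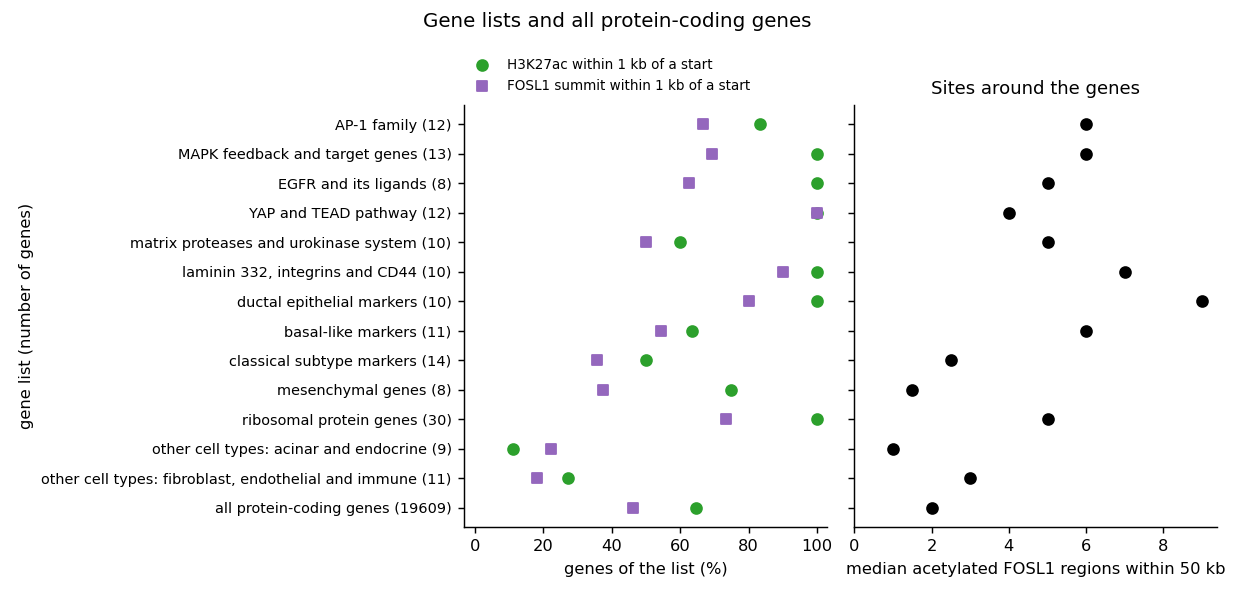
Gene lists with their number of genes, beside all 19609 protein-coding genes. The left panel gives the percentage of genes with H3K27ac (circles) or a FOSL1 summit (squares) within 1 kb of a start, and the right panel the median number of acetylated FOSL1 regions within 50 kb, which is 9 for ductal epithelial markers and 2 for all genes. For the YAP and TEAD pathway both symbols lie at 100%.

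Genes that encode AP-1 proteins had a median of 6 acetylated FOSL1 regions within 50 kb, against 2 over all genes and 5 for the ribosomal protein genes taken as housekeeping genes. Of 12 AP-1 family genes, 10 (83.3%) had H3K27ac and 8 (66.7%) had FOSL1 at the promoter, beside 64.7% and 46.2% of all genes. Ribosomal protein genes had promoter FOSL1 in 73.3%. All 8 were acetylated, where 96.6% of all genes with promoter FOSL1 had H3K27ac there. The highest promoter values were at FOSL1 itself, with a fold enrichment of 15.5 at 227 bp upstream of the start, and at FOSB, with 15.2. FOS followed with 11.8 and FOSL2 with 6.997. The FOSB locus also had a region of 24.1 at 12072 bp upstream of the start. JUN, JUNB, BATF and BATF3 had no FOSL1 summit at the promoter, and the strongest near JUN was an acetylated region 28336 bp downstream with 14.5. Of the promoter summits of FOSL1, FOSB, FOS and FOSL2, only that of FOSL2 held an AP-1 core in 200 bp.

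Genes of the MAPK pathway, which raises AP-1 activity, also had a median of 6 acetylated regions within 50 kb, close to the 5 of ribosomal protein genes. All 13 MAPK feedback and target genes had promoter H3K27ac and 9 (69.2%) had FOSL1 there, near the 69.0% of all genes with promoter H3K27ac. SPRED2, an inhibitor of RAS to MAPK signaling, had 17.6 at 136 bp upstream of its start, with a core. EGR1 had 10.7, ETV4 9.001 and DUSP5, a phosphatase of ERK, 7.98. IER3 had none at the promoter but an acetylated region of 20.3 at 25231 bp upstream. SPRY2, an inhibitor of receptor tyrosine kinase signaling, was the only gene of the list with no acetylated FOSL1 region within 50 kb, where its 2 FOSL1 regions carried no H3K27ac.

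Of EGFR and its 7 ligands, all 8 had promoter H3K27ac and 5 (62.5%) had FOSL1 there, beside 69.0% of all genes with promoter H3K27ac. EGFR had 9.54 at the promoter and 16.01 in a region 23330 bp downstream of the start, and all 9 FOSL1 regions within 50 kb were acetylated. BTC had 5.61, TGFA 5.12 and EGF 5.06 at the promoter. AREG, HBEGF and EPGN had no FOSL1 at the promoter. AREG, which encodes amphiregulin, had 6 FOSL1 regions within 50 kb, of which 1 was acetylated.

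All 12 genes of the YAP and TEAD list had both H3K27ac and FOSL1 at the promoter, beside 69.0% with FOSL1 among all genes with promoter H3K27ac. Their median of 4 acetylated FOSL1 regions within 50 kb was above the 2 of all genes and below the 5 of ribosomal protein genes. The highest were F3, the gene of tissue factor, with 12.6, AXL, a receptor tyrosine kinase, with 9.31, ANKRD1 with 7.53 and YAP1 with 6.35. The promoter regions of F3, AXL and YAP1 held an AP-1 core and that of ANKRD1 held none. CCN2, a widely used YAP target gene, had 5.82 at the promoter and only 1 more FOSL1 region within 50 kb, which was unacetylated.

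Genes of cell adhesion and matrix degradation differed in where FOSL1 lay. Of 10 genes for epithelial laminin, integrins and CD44, all had promoter H3K27ac and 9 (90%) had FOSL1 there. Of all genes with promoter H3K27ac, 69.0% had FOSL1 there. LAMA3 had 10.998 with 2 cores, ITGB1 had 6.65 and ITGB4 had 6.34, and ITGA2 had none at the promoter, where the strongest region within 50 kb, with 8.13, was acetylated and 1312 bp upstream. Of 10 genes for matrix proteases and the urokinase system, 6 (60%) had promoter H3K27ac and 5 (50%) promoter FOSL1. Over all genes these shares were 64.7% and 46.2%, so the list was near them. MMP1, the interstitial collagenase, had 6.81 at 98 bp upstream of the start, with a core, in the absence of promoter H3K27ac, while a region of 11.6 at 14283 bp downstream, which is also the strongest near MMP10, was acetylated. PLAU had no promoter FOSL1 but 9 acetylated regions within 50 kb, the strongest 15.8. MMP3, MMP9 and MMP13 had neither FOSL1 nor H3K27ac at the promoter, and all 3 had acetylated FOSL1 within 50 kb, with up to 18.0 near MMP13.

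Lists of PDAC subtype markers differed in how many acetylated FOSL1 regions lay within 50 kb, where all genes had a median of 2. At the promoter, 64.7% of all genes had H3K27ac, 46.2% FOSL1 and 44.3% acetylated FOSL1. Of 11 basal-like markers, 7 (63.6%) had promoter H3K27ac and 6 (54.5%) promoter FOSL1, all acetylated. Their median was 6 acetylated regions within 50 kb, where ribosomal protein genes had 5. KRT5, a basal keratin, had 14.3 and S100A2 13.2, with 17 acetylated regions around S100A2. KRT6A had 8.60 and KRT17 5.38. KRT6B, KRT14, LY6D and CST6 had neither H3K27ac nor FOSL1 at the promoter. KRT5 and KRT6A shared their strongest region within 50 kb, as did KRT14 and KRT17, so their counts overlap. Of 14 classical markers, 7 (50%) had promoter H3K27ac and 5 (35.7%) promoter FOSL1, with a median of 2.5. TFF1 had 5.34, FOXA1 4.94, AGR2 4.82 and GATA6, the classical lineage factor, 4.23 at the promoter, and CDX2 and TFF3 had no FOSL1 region within 50 kb. Of 8 mesenchymal genes, 6 (75%) had promoter H3K27ac and 3 (37.5%) promoter FOSL1, with a median of 1.5. VIM had 16.1 with a core, SNAI1 4.04, and FN1 3.52 without H3K27ac. ZEB1, SNAI2, TWIST1 and CDH2, which encodes N-cadherin, had promoter H3K27ac and no FOSL1 there, and ZEB2 had neither.

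Ribosomal protein genes served as housekeeping genes, with a median of 5 acetylated FOSL1 regions within 50 kb. All 30 had promoter H3K27ac and 22 had acetylated promoter FOSL1, a share of 73.3% beside 69.0% of all genes with promoter H3K27ac. The highest was RPL18 with 14.2, followed by RPL11 with 6.82, RPL27 with 6.50 and RPS14 with 6.07, and none of these 4 promoter windows held an AP-1 core. RPS9 had no FOSL1 region within 50 kb.

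The labelled cell type was checked by promoter H3K27ac. All 10 ductal epithelial markers had it, among them KRT7, KRT8, KRT18, KRT19, EPCAM and CDH1, and 8 had promoter FOSL1. Over all genes 64.7% had promoter H3K27ac, and 69.0% of those had promoter FOSL1. EPCAM had 12.8, and KRT8 and KRT18, which lie side by side, shared a region of 12.1. Of 9 acinar and endocrine markers only CEL had promoter H3K27ac, and PRSS1, CPA1, PNLIP, INS and GCG had none. Of 11 fibroblast, endothelial and immune markers, COL1A1, VWF and CD68 had it, and DCN, PECAM1, PTPRC and CD3E had none.

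The basal FOSL1 regions were also looked up in the 4 H3K27ac lists after TNFα or TWEAK. Of the 39623 regions acetylated in vehicle, 77.0% (76.6 to 77.5%) were acetylated in all 4 treated lists and 2.53% in none. Of the 19205 regions unacetylated in vehicle, 75.4% (74.7 to 76.0%) were acetylated in none and 1.35% in all 4. The 260 regions of the latter kind were in tandem repeats in 55.4% of cases. Outside tandem repeats, 6.49% of the regions unacetylated in vehicle were acetylated in the list after 30 min of TNFα and 13.4% in that after 6 h. For TWEAK these shares were 6.04% after 30 min and 7.29% after 6 h. These lists were called separately and held between 53861 and 61154 regions, so a region can pass in a longer list alone.

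The NF-κB subunits in vehicle overlapped FOSL1 mainly in repeats. Of 2971 RELA regions 85.5% and of 4085 RELB regions 79.4% shared at least 1 bp with a FOSL1 region. In the FOSL1 list the shared regions were 4.21% and 5.45%. Outside tandem repeats, 267 acetylated FOSL1 regions (0.715%) and 50 unacetylated regions (0.331%) overlapped RELA, and 159 (0.426%) and 45 (0.298%) overlapped RELB.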

How the data were processed

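ChIP-seq peak lists of FOSL1 and H3K27ac from vehicle-treated L3.6pl cells were analysed, with the 14 other lists of the series for comparison. The authors mapped reads to hg38 and called peaks with MACS2 against input, as narrow peaks for FOSL1 and broad peaks for H3K27ac. The submitters' processing notes name Bowtie2 2.5.0, SAMtools 1.18, deepTools 3.3.2 and MACS2 without a version. A single list was deposited for the 3 replicates of each group. How reads with several matches were treated and whether a blacklist was used are not given in the sources used here. The deposited fold enrichment is the authors' ratio of ChIP at the summit, or averaged over a broad peak, to a background taken from the input. The deposited −log10 q is the authors' significance. The deposited summit offset, another column of the narrow lists, gave the summit position. The score and −log10 p columns, 32 in all, were not used.

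Regions on chromosomes 1 to 22 and X were kept. Python 3.11.15 with numpy 2.4.6, pandas 2.3.3 and numba 0.67.0 counted the overlaps, for which bedtools 2.31.1 gave the same 35457 and 32546 shared regions. Exact intervals came from scipy 1.17.1, and sequence was read with pysam 0.24.0 from hg38. Figures were drawn with matplotlib 3.10.9. Starts were those of basic protein-coding transcripts in GENCODE 44. A self-match of at least 0.4 marked a tandem repeat. Motifs were searched on both strands in 200 bp around the summit and in all 200 bp tiles without unknown bases. The functions recovered the overlaps, planted motifs and tandem repeats of simulated data.

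The regions, gene lists, windows and motifs were chosen with earlier results of these data known. Named regions were the 10 strongest FOSL1 regions with and without H3K27ac and the 5 longest H3K27ac regions with and without FOSL1. Named genes of a list were up to 4 with the highest promoter fold enrichment and those without a region. Some items are not reported here. Other genes, the words of 7 letters and the near-copies were chosen after their values were seen. Alternatives changed the q limit, the lowest fold enrichment, the number of regions, the treatment of repeats, the overlap, the windows and the ranking.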

Additional observations from a re-analysis of the deposited data

Results flagged for a closer look

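Outside chromosomes 1 to 22 and X, in sequence that entered no comparison, the FOSL1 list held 1525 further regions, of which 36 were on chromosome Y, 2 on the mitochondrial genome and 1487 on unplaced or alternate sequences. They drew attention as a signal outside the main measurement. Of the 1525 regions, 907 (59.5%, 57.0 to 62.0%) had H3K27ac within 500 bp of the summit, and their median fold enrichment was 5.04.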

How the results depend on the processing

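No paired analysis was possible because the replicates of each group were pooled in 1 list, and for the same reason no replicate could be left out. In order, the acetylated share of FOSL1 regions (67.4%), the share with 1 bp shared (60.3%) and the share of H3K27ac regions with FOSL1 (54.4%) became 59.1%, 54.5% and 63.7% with both lists at q of at most 0.001, 73.2%, 66.5% and 33.6% with FOSL1 fold enrichment of at least 5, 85.5%, 80.4% and 14.7% with the 10000 strongest FOSL1 regions, and 70.7%, 63.2% and 53.4% with tandem repeats left out of both lists. The acetylated share was 48.0% with a summit window of 0 bp and 68.5% with 1000 bp. Asking that at least 50% of a FOSL1 region be covered gave 48.8% of FOSL1 and 42.7% of H3K27ac regions. The promoter and distal shares (95.6% and 61.4%) were 94.3% and 51.9% at the stricter q, 94.5% and 70.7% at fold 5, 94.1% and 65.1% without tandem repeats, 96.4% and 62.3% with a promoter window of 500 bp, and 91.2% at promoters with 2500 bp. Distal regions without repeats or near-copies, a setting chosen after seeing the data, gave 66.3%. The strongest minus the weakest decile (23.6 percentage points over all and 35.0 over distal regions) was 11.9 and 21.5 without tandem repeats and 36.3 and 50.0 when ranked by −log10 q. The AP-1 share of all regions (38.2%) was 39.6% at the stricter q, 42.4% without tandem repeats, 42.3% also without near-copies, and 34.3% and 39.9% with windows of 100 and 400 bp. The AP-1 share with minus without H3K27ac over all regions (-7.60 points) was -10.4 at the stricter q, -16.2 without tandem repeats, -17.6 also without near-copies and -6.60 with 100 bp. Over distal regions the difference was 0.112 points, with an approximate 95% interval of -0.794 to 1.02 that left its sign open. It reversed to -2.02, -8.39 and -8.00 under the first 3 of these settings. The repeats held a core in 3.14% of cases and were mostly unacetylated. Genes with an acetylated FOSL1 promoter (44.3%) were 41.3% at the stricter q, 16.1% at fold 5 and 48.4% with 2500 bp. Promoter regions were more often acetylated than distal regions, and the strongest decile more often than the weakest, under every setting run for them. The causes of these shifts were not tested, and the unknown depth of the lists limits all shares.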
